A study of Mus musculus with 187 samples.

Results

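The subject is the variation among 28 single mouse embryos collected at the 4-cell stage after injection of GFP RNA. They were taken by their label of injected RNA, and are 28 of the 187 embryos of the series and 28 of the 55 4-cell embryos with expression values. The study injected zygotes with sperm small RNA, tRNA fragments, an antisense oligonucleotide or GFP RNA, and sequenced single embryos at the 2-cell or 4-cell stage. All were FVB embryos made by in vitro fertilisation (IVF) from control-diet males and females, and were injected about 2 h after IVF. The GFP embryos received mRNA of histone H3.3 fused to GFP, which the design text of the series writes as HIS3.3::GFP and calls the control RNA. Embryos were picked by their GFP signal, per the labels' protocols. The nearest group is the 4-cell embryos labelled tRF-GlyGCC Antisense. The labels list 28 of them, and the 27 with expression values are called antisense embryos below and used only for comparison. The values are FPKM (fragments per kilobase of transcript, scaled to library size), which the authors deposited for 23534 features.

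The titles end in a code of digits that groups of embryos share, and the labels do not say what it stands for. The 8 codes of the 4-cell table are written here as J to R, without O, in their order. The GFP embryos number 3 in code J, 4 in K, 2 in L, 4 in M, 2 in N, 4 in P, 5 in Q and 4 in R. The antisense embryos number 3, 4, 4, 5, 5, 2 and 4 in codes J to Q, and code R holds GFP embryos only. GFP embryos are numbered 1 to 28 in the order of the record, so a number only names an embryo. The labels do not tie embryos to a fertilisation round, so p-values reflect no more than embryo-to-embryo spread, which may be technical.

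The 4-cell mouse embryo has just passed the major activation of its own genome, which runs in the 2-cell stage. Much of the messenger RNA stored in the oocyte has been destroyed by then, and the burst of 2-cell transcripts linked to the retroelement MERVL is fading. Ribosome, mitochondrial and heat-shock genes are transcribed strongly, and the first differences between blastomeres that precede trophectoderm and inner cell mass begin to form. Imprinted genes are read from 1 parental copy only, and the X chromosome inherited from the father expresses Xist, the RNA that silences it.

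From the steps of the low FPKM values, relative depth spanned 4.06-fold among the GFP embryos, at about 0.802 to 3.26 M fragments (median 1.63 M). The scale of these totals is approximate. Each embryo had 9155 to 10610 features at 1 FPKM or more (median 10082.5). Pearson's r between pairs of embryos on log2(FPKM + 1) was 0.619 to 0.918 over the 378 pairs, with a median of 0.86. Embryo 6, of code P, stood apart: its median r with the others was 0.714, it had the fewest features, and its FPKM summed to 1012480 against a median of 586272. Embryos 2 and 8, the GFP embryos of code N, had median r of 0.771 and 0.803. Results that these libraries move are given with and without them.

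Markers of other cells were mostly absent. Of 22 cumulus and granulosa markers, 8 were at 0 in every embryo and 1 had a mean of 5 FPKM or more, the anti-Müllerian hormone receptor Amhr2 at 40.8 to 151 FPKM. Of 16 sperm markers, 5 were at 0 in every embryo and only Odf2, at 1.75 to 25.9 FPKM, had such a mean. Of the 14 features of the blood list, 4 passed, all copies of alpha globin genes whose reads cannot be told apart with certainty, and the list summed to 4.78 to 450 FPKM. Pou5f1, the factor of pluripotent cells also called Oct4, ran from 9.81 to 309 FPKM with a median of 124, and the oocyte and cleavage-stage gene Dppa3 had a median of 4810 FPKM. Sox2, a later marker of the inner cell mass, was at 0 in 25 of 28 embryos, and Cdx2, of the trophectoderm, reached 3.25 FPKM at most. The 2-cell genes Zscan4c and Zscan4d had medians of 2.43 and 3.81 FPKM. Other 2-cell genes were higher: of the 58 features of the 2-cell list, 26 had a mean of 5 FPKM or more. Among these, Tdpoz2 and Tdpoz4 had medians of 26.8 and 51.9 FPKM.

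In the mean of the 28 embryos, 7144 features had at least 5 FPKM and 1138 had at least 100 FPKM. The 20 most abundant held 8.45% to 17.6% of all FPKM of an embryo (median 11.6%). They included Gm11517, Rpl41, Mir684-1, Mt1, Dppa3, Hspa8, Mt2, Alppl2, Rps29, Dppa5a, Npm1, Ppia, Rplp0, Crxos1, Rps26, Rpl10, Fbxo15 and Rplp1. Gm11517, a predicted gene, ran from 4953 FPKM (lowest) through 7437 (median) to 26733 FPKM (highest). Rpl41, the smallest protein of the large ribosomal subunit, had 3588, 5557 and 16694 FPKM in the same order. Dppa3 (Stella), an oocyte protein that protects the maternal genome from demethylation, had 2977, 4810 and 11819 FPKM. These 3 stayed within a few-fold of their medians in all 28 embryos. Hspa8, the constitutive Hsp70 chaperone, had a median of 3869 FPKM but only 205 FPKM in embryo 6 and 1053 in embryo 26. Alppl2, an alkaline phosphatase of early embryos, had 506, 3286 and 4354 FPKM. H3f3a and H3f3b, which encode histone H3.3, the protein whose mRNA was injected as a GFP fusion, had medians of 927 and 982 FPKM. The Mir684-1 entry spans less than 300 bases.

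Mt1 and Mt2, the metallothioneins that bind zinc and copper, lie side by side on chromosome 8 and ranked 4 and 7. Their promoters are shown because the 2 genes are abundant, variable and moved together across embryos. The sequences are the 250 bases before each gene's start, from RefSeq for GRCm38.p6, on the plus strand at chr8:94178839-94179088 for Mt1 and chr8:94172368-94172617 for Mt2. Capitals mark matches, on either strand, to TGCACNC or TGCGCNC, the core of the metal response element bound by the zinc sensor Mtf1.
Mt1: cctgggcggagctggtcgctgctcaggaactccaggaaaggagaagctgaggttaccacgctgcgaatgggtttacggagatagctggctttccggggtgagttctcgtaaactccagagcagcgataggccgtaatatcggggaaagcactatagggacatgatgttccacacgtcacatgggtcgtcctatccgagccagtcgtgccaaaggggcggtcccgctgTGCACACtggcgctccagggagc
Mt2: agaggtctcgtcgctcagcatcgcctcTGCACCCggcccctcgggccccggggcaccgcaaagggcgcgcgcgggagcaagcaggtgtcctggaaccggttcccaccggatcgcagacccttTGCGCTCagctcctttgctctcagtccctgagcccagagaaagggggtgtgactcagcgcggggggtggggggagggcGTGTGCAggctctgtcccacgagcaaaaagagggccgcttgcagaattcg
The Mt1 stretch holds 1 match and the Mt2 stretch holds 3, without overlap. Bases beyond these stretches were not searched. The counts therefore depend on the annotated starts and do not compare the 2 promoters as a whole. Of 32851 RefSeq promoters of the same length, 21.4% hold at least 1 match and 1.26% at least 3, so a match is a description and not a site. Mt1 had 1219 FPKM at its lowest, a median of 4821 and 19533 at its highest, and Mt2 had 659, 3192 and 12626 FPKM. Embryo 26 was lowest and embryo 6 highest for both genes. With end code means removed, their log2(FPKM + 1) values correlated with Pearson's r of 0.975 (n = 28 embryos, permutation p = 1e-05, the smallest that 100000 shuffles within end codes can give) and Spearman's rho of 0.915 (permutation p = 3e-05). Without the 2 embryos farthest from the median of Mt1, r was 0.944. In the antisense embryos r was 0.845 (n = 27).

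The spread of a gene between embryos was measured as the SD of log2(FPKM + 1) around end code means. Its median was 0.60 over the 7144 features, with a 5th percentile of 0.35 and a 95th percentile of 1.17. Low genes spread more: the median SD was 0.68 for the 3272 features with a mean of 5 to 20 FPKM, 0.57 for the 2734 from 20 to 100 and 0.50 for the 1138 above. Variability for the mean was therefore taken as log2 of the SD over a lowess trend on mean expression. This excess was 1 or more, an SD at least 2 times the trend, for 164 features. Of the 25 largest values, 21 belonged to microRNA and small nucleolar RNA entries such as Mir1935, Mir1954, Mir5098 and Snord55, with excess of 2.02 to 3.38. Entries were counted as small RNA by such names or by a locus under 300 bases. With a filter on a mean of 20 FPKM, 14 of the 25 remained, and with a pseudocount of 0.1 FPKM 16 did.

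**Figure D1:**
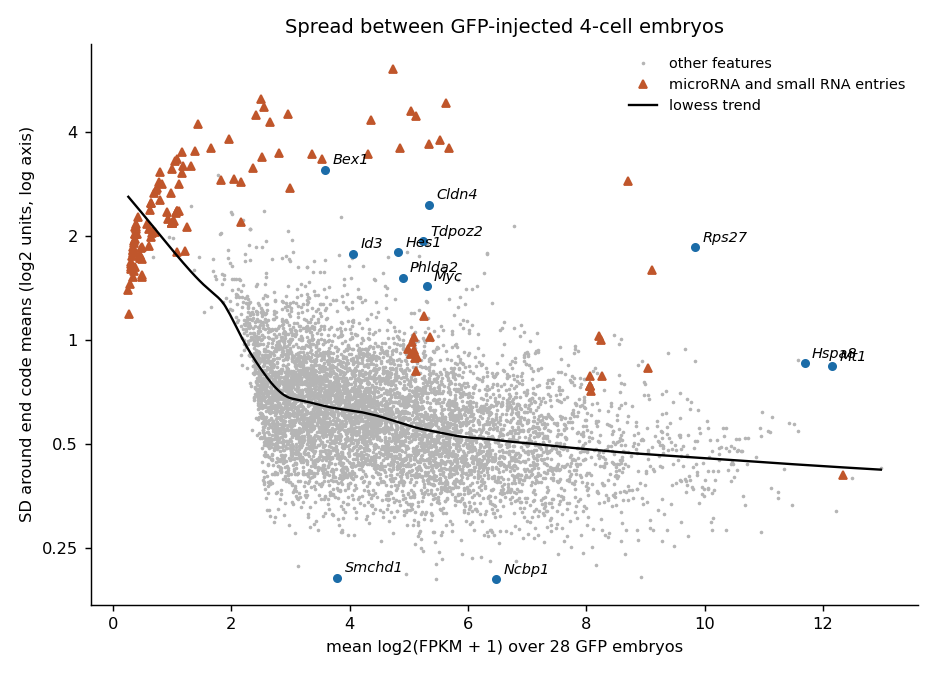
SD of log2(FPKM + 1) around end code means (vertical, log axis) against mean log2(FPKM + 1) over the 28 GFP embryos (horizontal) for the 7144 features averaging 5 FPKM or more. The line is the lowess trend and triangles are microRNA and small RNA entries, which hold 21 of the 25 largest values over the trend. Blue points are named genes.

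Leaving out such entries, an alternative added after the data were seen, gave a list of protein-coding and long noncoding genes with excess of 1.43 to 2.27. Of these 25, 24 were also among the 25 without embryo 6, 18 without codes M and N, and 22 were in the top 5% of the antisense embryos. Bex1, a small X-linked protein of the brain-expressed family, led the list: it was at 0 in 7 embryos, had a median of 6.83 FPKM and reached 482 FPKM in embryo 6. Cldn4, a claudin of epithelial tight junctions, was at 0 in embryos 2 and 3, had a median of 90.4 FPKM and reached 372 FPKM in embryo 27. Both genes were listed at 0 in some embryos and abundant in others. Bex1 lay with Xist at one end of the second component described below. In the GFP embryos of codes M and N, where Xist reached 2.02 FPKM at most, Bex1 was at 4.63 FPKM or less. Whether Bex1 follows the sex of the embryo was not tested. Whether a value of 0 here means that a gene was silent was not tested. Rpl26 and Rps27 followed, 2 ribosomal protein genes with processed copies elsewhere in the genome. Rps27 ran from 72.9 to 2703 FPKM. Its correlation with the other cytosolic ribosomal protein genes was only 0.14, and that of Rpl26 was 0.24. In antisense embryos the excess was 2.01 for Rps27 and 1.66 for Rpl26. Whether reads of the copies enter these values was not tested, so they are to be taken with caution. Next came Defb25, a beta-defensin (0 to 291 FPKM), Tdpoz2 of the 2-cell speckle-type family (0.388 to 1004 FPKM), Gm10697, and Hes1, the Notch target repressor (0 to 127 FPKM). Hspb1, a small heat-shock protein, ran from 1.08 to 554 FPKM, Ifitm2, an interferon-induced membrane protein, from 2.61 to 423 FPKM, and Id3, an inhibitor of bHLH factors, from 0 to 129 FPKM.

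The 10 steadiest genes for their mean included Smchd1, Mrpl19, Casp8ap2, Ncbp1, 2010315B03Rik, Osbpl8, Bod1l, Pibf1 and Tmbim6, with SDs 1.27 to 1.63 below the trend on the log2 scale. Smchd1, a chromatin protein of the inactive X chromosome, had 7.95 FPKM at its lowest, a median of 13.6 and 17.1 at its highest. Ncbp1, the large subunit of the nuclear cap-binding complex, had 67.6, 90.3 and 118.8 FPKM. No GFP embryo was far from the median for either gene. In the antisense embryos 9 of the 10 also lay below the median excess of all features. The exception was Ncbp1, which ran from 18.5 to 220 FPKM there, and Smchd1 ran from 1.12 to 17.2 FPKM. Both lowest values are from antisense embryo 19, which had the fewest features (6644) and the lowest median r (0.627) of its group. The next lowest values were 52.3 FPKM for Ncbp1 and 4.99 FPKM for Smchd1. Across the 7123 features measured in both groups, the excess correlated with a Spearman's rho of 0.47, a value over genes, which are not independent replicates.

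Principal components of the residuals were first led by small RNA entries and 1 library. The first component held 18% of the variance around end code means and drew 60.2% of its own variance from embryo 6. Without small RNA entries and without embryo 6, a choice made after the data were seen, the first component held 17.8% and the second 11.3%. At one end of the first stood Cldn4, Plaur (the urokinase receptor), Slc39a2 (a zinc transporter), Id3, Cthrc1, Ly6a, Sycn, Spink2, Ifitm2 and Rftn1. Aqp3, a water and glycerol channel, Tbx3, a T-box factor of pluripotent cells, and the growth factor target Myc were close behind. At the other end stood Defb25, H2-Q8, Hist2h4, 2610019E17Rik, Ppp3r1, Terc (the telomerase RNA), Pdgfa, Lipi, Tdpoz2 and Ube2o. Embryos 13, 27 and 24 scored highest and embryos 26, 3 and 17 lowest.

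Plaur had a median of 12.2 FPKM, was at 0 in 7 embryos and reached 44.4 FPKM. Slc39a2 had a median of 11.2 FPKM and reached 55 FPKM, and Aqp3 ran from 1.15 to 68.2 FPKM. Tbx3 had 1.44 FPKM at its lowest, a median of 18.7 and 80.4 at its highest, and Myc had 1.21, 54 and 127 FPKM. The 3 embryos at the low end did not have the lowest value of every gene: Id3 in embryo 3 was at 17.6 FPKM, close to its median of 16.7.

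**Figure D2:**
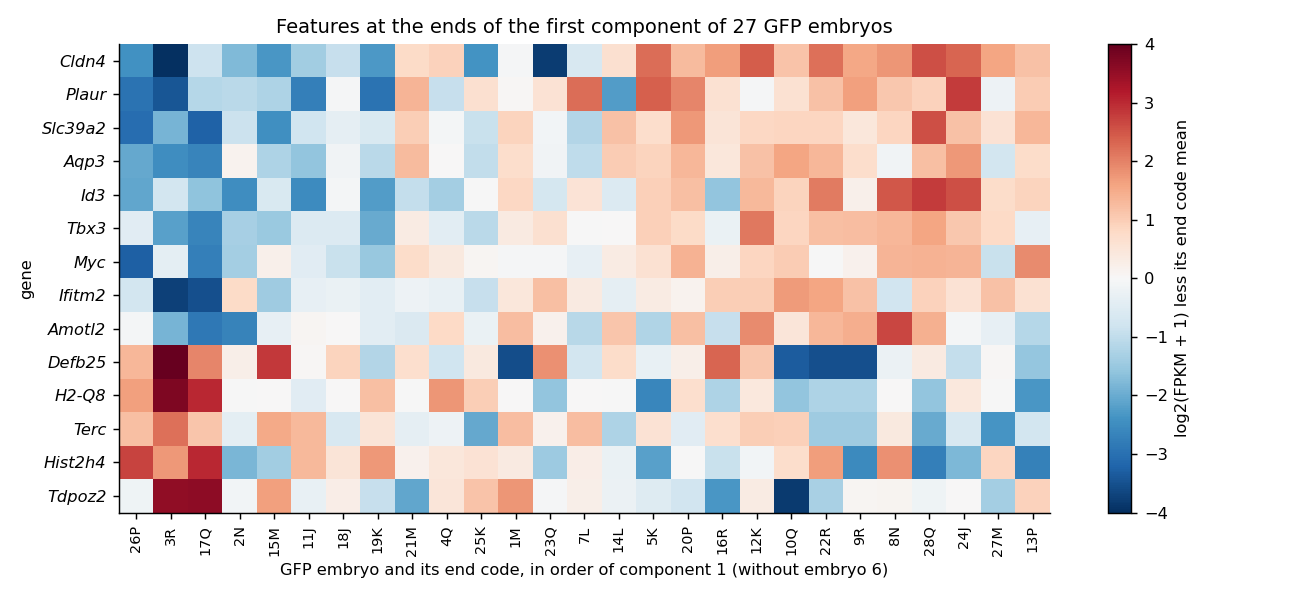
Log2(FPKM + 1) less its end code mean for 14 features (rows) in the 27 GFP embryos without embryo 6 (columns, numbered, with the end code letter), ordered by the first component. Embryos 26, 3 and 17 on the left are low for Cldn4, Plaur, Slc39a2 and Aqp3, and embryos 24, 27 and 13 on the right are mostly high. The genes were chosen by this component, so the picture describes it and tests nothing.

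The second component had Bex1, Tdpoz4, 2 copies of Gm10697, Gm10696, Tdpoz2, Xist, Gm4858, Bex4 and Gm9125 at one end. At the other were Eif2s3y, on the Y chromosome, 3 copies of the homeobox gene Cphx2, 2700094K13Rik, Cdh1 (E-cadherin), Amotl2, Slc25a4, Ciita and Zfp385a, with Fgf4 and Nanog among the next 10. It thus carried sex-linked genes and 2-cell-stage genes of the Tdpoz family together. Few libraries weighed heavily on it: embryos 13, 3 and 17 scored highest (0.434, 0.417 and 0.373) and embryo 26 lowest (-0.374). Eif2s3y was at 0 in embryos 13, 3 and 17 and at 53.1 FPKM in embryo 26. Whether the sex-linked and Tdpoz genes are related beyond these libraries was not tested. In the clustering described next, Eif2s3y fell in a group of 5 features with the 3 copies of Cphx2. Its median r was 0.55 in GFP embryos and 0.11 in antisense embryos. The 3 copies have the same lowest, median and highest FPKM and the same loading. They thus count as 1 profile, and the median r is not the correlation of Eif2s3y with Cphx2.

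Clustering the 150 most variable features apart from small RNA entries, at r of 0.5 or more, placed 86 of them in 11 groups of at least 5. The clusters were made from these correlations, so only the antisense values are new. The first held 20 features, among them Cldn4, Plaur, Ckmt1, Amotl2, Slc39a2, Aqp3, Tbx3 and Gprc5a, with a median r of 0.64 in the GFP embryos, 0.65 without embryo 6 and 0.44 in the antisense embryos. The second held 9 features with Tdpoz2, Tdpoz4, Gm10697 and Gm10696, near-identical family members that can share reads, with r of 0.85 and 0.90 in antisense. The third held Hes1, Ifitm2, Ly6a, Ifitm1 and Spink2 (0.65, antisense 0.38). The fourth, with Hspa8, Sqstm1 and Wsb1, rested on 1 library: its r of 0.70 fell to 0.16 without embryo 6. Others held Phlda2 with Mt1 and Mt2 (0.67, antisense 0.22), histone genes (0.86, antisense 0.68), and Bex1, Bex4 and Xlr (0.60, antisense 0.34).

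Named programs were then scored as the mean log2(FPKM + 1) of their members at 5 FPKM or more, less the end code mean. The 22 lists form 231 pairs, and 38 of them, 16.5%, correlated across the 28 embryos by a permutation test within end codes (adjusted p under 0.05 over the 231). All 38 correlations were positive, and 28 of the pairs were also called without embryo 6, where 51 pairs passed. Without codes M and N 39 pairs passed, 32 of them shared. After median-of-ratios scaling 20 pairs passed, 18 of them shared and 19 of the 20 positive. Leaving out code P gave 66 pairs, code Q 23 and code R 24.

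One block joined the machines of protein synthesis, energy and protein turnover. Oxidative phosphorylation and mitochondrial ribosomal proteins correlated with r = 0.96 and rho = 0.92 (n = 28, permutation adjusted p = 0.000577). The r was 0.93 without the 2 farthest embryos, 0.94 without embryo 6 and 0.96 in antisense. Cytosolic ribosomal proteins and oxidative phosphorylation had r = 0.88 and rho = 0.87 (permutation adjusted p = 0.000577), with 0.81 without embryo 6 and 0.80 in antisense. Mitochondrial ribosomal proteins and proteasome subunits had r = 0.86 and rho = 0.88 (permutation adjusted p = 0.000577), with 0.91 without embryo 6. Cytosolic ribosomal proteins took 12.3% to 26.3% of the FPKM of an embryo (median 15.2%), with embryo 6 the highest. Rpl30, of the large subunit, shows the range, at 195 FPKM in embryo 14, a median of 421 and 1689 FPKM in embryo 6. Members moved closely: the median r of a member with the rest of its list was 0.89 for cytosolic ribosomal proteins, led by Rpl21, Rpl6 and Rps29. It was 0.64 for oxidative phosphorylation, led by Cox7c, Cox6a1 and Atp5j2, 0.60 for mitochondrial ribosomal proteins, led by Mrps18b, and 0.57 for proteasome subunits, led by Psmc5. FPKM are relative to the library, so scores of different lists within an embryo are not independent of each other.

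A cell cycle block joined G1/S and G2/M genes with r = 0.91 and rho = 0.86 (n = 28, permutation adjusted p = 0.00139), 0.76 without embryo 6 and 0.55 in antisense. Ccne1, the cyclin that drives entry into S phase, had 20.5 FPKM in embryo 6, a median of 240 and 446 FPKM in embryo 16. Mcm6 and Mcm7, subunits of the replicative helicase, had 9.3 and 6.27 FPKM in embryo 6 against medians of 114 and 81.7. The embryo lowest for all 3 was embryo 6. With it left out, the median r of a G1/S member with its list fell from 0.41 to 0.16, and that of aminoacyl-tRNA synthetases from 0.64 to 0.26. The heat-shock and chaperonin list, led by the chaperonin subunits Cct2, Cct6a and Cct5, correlated with translation factors at r = 0.77 and rho = 0.79 (permutation adjusted p = 0.00139, 0.76 without embryo 6). Its r with oxidative phosphorylation was 0.08 with embryo 6 (permutation adjusted p = 0.907) and 0.81 without it (permutation adjusted p = 0.00185). Cytosolic ribosomal proteins with translation factors likewise went from r = 0.31 (permutation adjusted p = 0.634) to 0.91 without embryo 6 (permutation adjusted p = 0.000385). In that library ribosomal and mitochondrial genes were high while chaperone, replication and tRNA synthetase genes were low.

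A block of fate and junction genes was smaller. Pluripotency and lineage factors correlated with immediate early genes at r = 0.76 and rho = 0.75 (permutation adjusted p = 0.0039), and with adhesion and junction genes at r = 0.70 and rho = 0.72 (permutation adjusted p = 0.00944). These values were 0.80 and 0.69 without embryo 6, and 0.64 and 0.79 in antisense. Tbx3, Fgfr2 (the FGF receptor of primitive endoderm and trophectoderm) and Gata6 (a factor of primitive endoderm) led the lineage list. Gata6 had 1 FPKM at its lowest, a median of 9.44 and 26.2 at its highest, and Nanog had 2.16, 25.7 and 63.8 FPKM. Jup (plakoglobin), Capzb and Cdh1 led the adhesion list, and Cdh1 ran from 0 to 25.3 FPKM with a median of 13.9. Adhesion genes and 2-cell-stage transcripts had r = -0.37 over all embryos (permutation adjusted p = 0.342) and -0.76 without embryo 6 (permutation adjusted p = 0.0124), with -0.48 in antisense.

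Several lists had no called pair, whatever the correlation among their own members. Replication-dependent histone genes had the widest score, with an SD of 0.77 and a median r of 0.90 within the list. Hist1h2an ran from 8.03 FPKM in embryo 13 to 252 FPKM in embryo 23 with a median of 84.4. Maternal oocyte transcripts, led by Tcl1, Rfpl4 and Accsl, had a within-list r of 0.43. Gdf9 and Bmp15, the oocyte growth factors, were still at medians of 18.4 and 19.4 FPKM. The imprinted list had a within-list r of -0.12 in GFP embryos after end code means were removed, and 0.69 in antisense embryos. In GFP embryos low Snrpn took up codes M and N whole, as described below. Removing code means there takes out that difference, so the -0.12 does not show that imprinted genes vary apart.

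**Figure D3:**
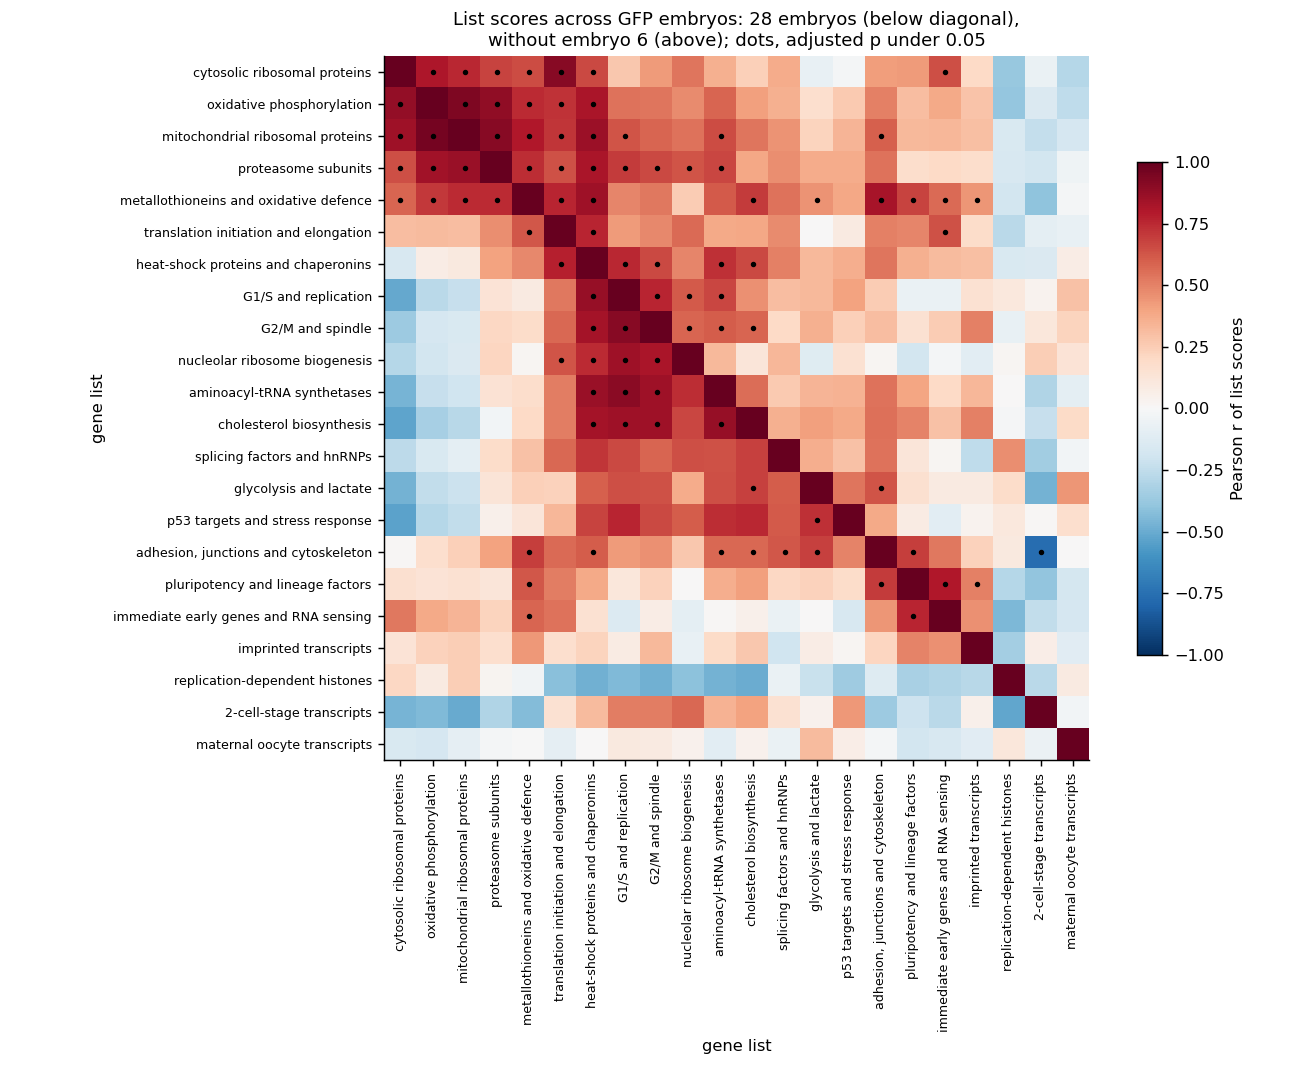
Pearson's r between the scores of 22 gene lists across GFP embryos, below the diagonal for all 28 and above it without embryo 6. Colour gives r and a dot marks an adjusted permutation p under 0.05. Below the diagonal 38 pairs have a dot, all positive, and above it 51 do.

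End codes themselves differed. By limma's moderated F-test over the 8 codes, 370 of 7144 features, 5.18%, had an adjusted p under 0.05. The mean of code N was the lowest for 304 of them. Without code N 15 features passed, 0.21%, and without codes M and N 0 passed, with 551 at an unadjusted p under 0.05. The 10 features with the smallest adjusted p were Mcts2, Snrpn, Snurf, Ndufa5, Cdk4, Bbx, Lamtor5, Ap1m1, Rangrf and Fez2, and for all 10 the lowest code mean was in M or N. A p that misses the threshold does not show that the remaining codes are alike. Leaving out code P gave 790 features.

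Several transcripts were at or near 0 FPKM in the GFP embryos of code M and above 0 in all 22 embryos outside M and N. Set against the mean of the other codes by limma, 21 features were lower in M (0.294% of those tested) and 4 were higher (0.056%). Code M was picked after the F-test on these same embryos. The p-values of this contrast therefore describe that difference and are not separate support for it. Leaving out 1 embryo of M at a time gave 11 to 23 lower features, 11 to 17 of them among the 21, with 11 without embryo 27 and 14 without embryo 15. Without embryo 6 there were 25, 20 of them shared, and without code N 28, with all 21 among them. Of 13 imprinted genes tested, 5 were lower and 0 higher, with a median log2 difference of -0.22 against 0.04 for all features. The 5 are all expressed from the father's copy, out of 6 such genes tested, and 0 of 4 genes expressed from the mother's copy were lower. Snrpn and Snurf, which share a transcript, both count among the 5.

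Snrpn, the paternally expressed splicing protein of the Prader-Willi region on chromosome 7 (59982502 to 60140219, mm10), had 0 to 1.1 FPKM in the 4 embryos of M. In the 22 embryos outside M and N it had 5.45 FPKM at its lowest, a median of 61.4 and 190 at its highest. The groups did not overlap. Against the mean of all other codes, N included, the difference was -4.52 on the log2(FPKM + 1) scale (SE 0.49, limma adjusted p = 1.74e-06). The log2 differences of the next genes are from the same contrast with code N included, not against the 22 alone. Snurf shares its transcript with Snrpn, so their reads cannot be separated with certainty. Mcts2, a paternally expressed retrogene inside H13, was at 0 in all 4 embryos of M and at 2.55 to 113 FPKM in the 22 (log2 difference -4.37, SE 0.40, limma adjusted p = 9.98e-08). Its host gene H13, expressed from the mother's copy, was at 7.18 to 13.9 FPKM in M and 6.29 to 26.8 FPKM in the 22, which overlap. Impact, a translational regulator of Gcn2 signalling, had 0.969 to 1.99 FPKM in M and 4.44 to 60.5 FPKM in the 22 (log2 difference -2.78, SE 0.37, limma adjusted p = 4.85e-05). Gab1, a scaffold of receptor tyrosine kinases that early mouse embryos read from the father's copy, had at most 0.458 FPKM in M and at least 2.61 FPKM in the 22 (log2 difference -2.60, SE 0.40, limma adjusted p = 0.000393). Each of these 4 genes was lower in every embryo of M than in any of the 22.

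The paternal list holds 14 genes in the table, of which 8 averaged less than 5 FPKM and were not tested. Of these 8, Phf17, Sgce, Peg3, Slc38a4 and Sfmbt2 were under 1 FPKM in all 4 embryos of M, but each was at 0 in at least 1 of the 22 as well. Mest had 0.24 to 1.57 FPKM in M and 1.04 to 17 FPKM in the 22, and Smoc1 was at 0 to 1.45 and 0 to 5.34 FPKM, so that both ranges overlap. Usp29 had 2.48 to 7.79 FPKM in M and 0.886 to 11.3 FPKM in the 22 (limma adjusted p = 0.984). Kcnq1ot1, the long noncoding RNA read from the father's copy, was not tested either and had 2.19 to 13.5 FPKM in M against 0.69 to 10.3 FPKM in the 22. Of the maternal genes, Phlda2, a growth-limiting placental gene, had 4.21 to 86 FPKM in M and 1.04 to 141 FPKM in the 22. Igf2r, the receptor that clears IGF2, had 10.6 to 30.7 and 6.22 to 40.1 FPKM. For these 4 genes the groups overlap.

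Genes outside the imprinted list moved too. Bbx, an HMG-box protein, was at 0 in all 4 embryos of M and at 2.7 to 20.3 FPKM in the 22. Rangrf, a Ran-binding factor, was at 0 in M and at 2.81 to 48.2 FPKM in the 22, and Gca (grancalcin), a calcium-binding protein, at 0 in M and at 1.06 to 29.5 FPKM. Gabarap, an autophagy protein, was lower but present, at 15.8 to 34.3 FPKM in M and 45.2 to 137 FPKM in the 22. Gm4850 was higher in M, at 25.8 to 105 FPKM against 0.442 to 32.8 FPKM. In all, 6 features were under 1 FPKM in all 4 embryos of M and at 1 FPKM or more in all 22 others: Mcts2, Rangrf, Snurf, Gab1, Gca and Bbx. Of these, Snurf, Gab1, Gca and Bbx were under 1 FPKM in the 2 embryos of N as well.

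Embryos 2 and 8 of code N had Snrpn at 0 and 0.723 FPKM and Gab1 at 0.643 and 0 FPKM. They differed on other genes: Impact was at 15.3 FPKM in embryo 2 and 2.01 FPKM in embryo 8, and Mcts2 at 3.84 and 6.92 FPKM. In the 5 antisense embryos of code M, Snrpn was at 0 to 0.646 FPKM, Gab1 at 0.253 or less and Bbx at 0.138 or less. The maternally expressed Phlda2 was at 110 to 200 FPKM in these 5. In the 17 antisense embryos outside M and N it was at 1.51 to 90.7 FPKM, without overlap, unlike in GFP embryos. Igf2r, H13 and Commd1, the other maternal genes tested, overlapped between these antisense groups. Of the 21 features, 20 had a lower estimate in antisense embryos of M too, 16 at an unadjusted p under 0.05 against 6.83% of all features, with a median log2 difference of -1.90 against 0.01. By limma with adjustment 0 of the 21 passed there, where 3 features were lower (0.042%) and 7 higher (0.098%). Snrpn was also under 2 FPKM in 6 antisense embryos of other codes. By replicate number these were 7, 12 and 26 of code N, 4 and 20 of Q and 10 of J. Antisense embryos 3 and 19 of code N had 68.5 and 69.1 FPKM, so in antisense embryos low Snrpn did not follow the code. Why 0 of the 21 passed was not tested.

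**Figure D4:**
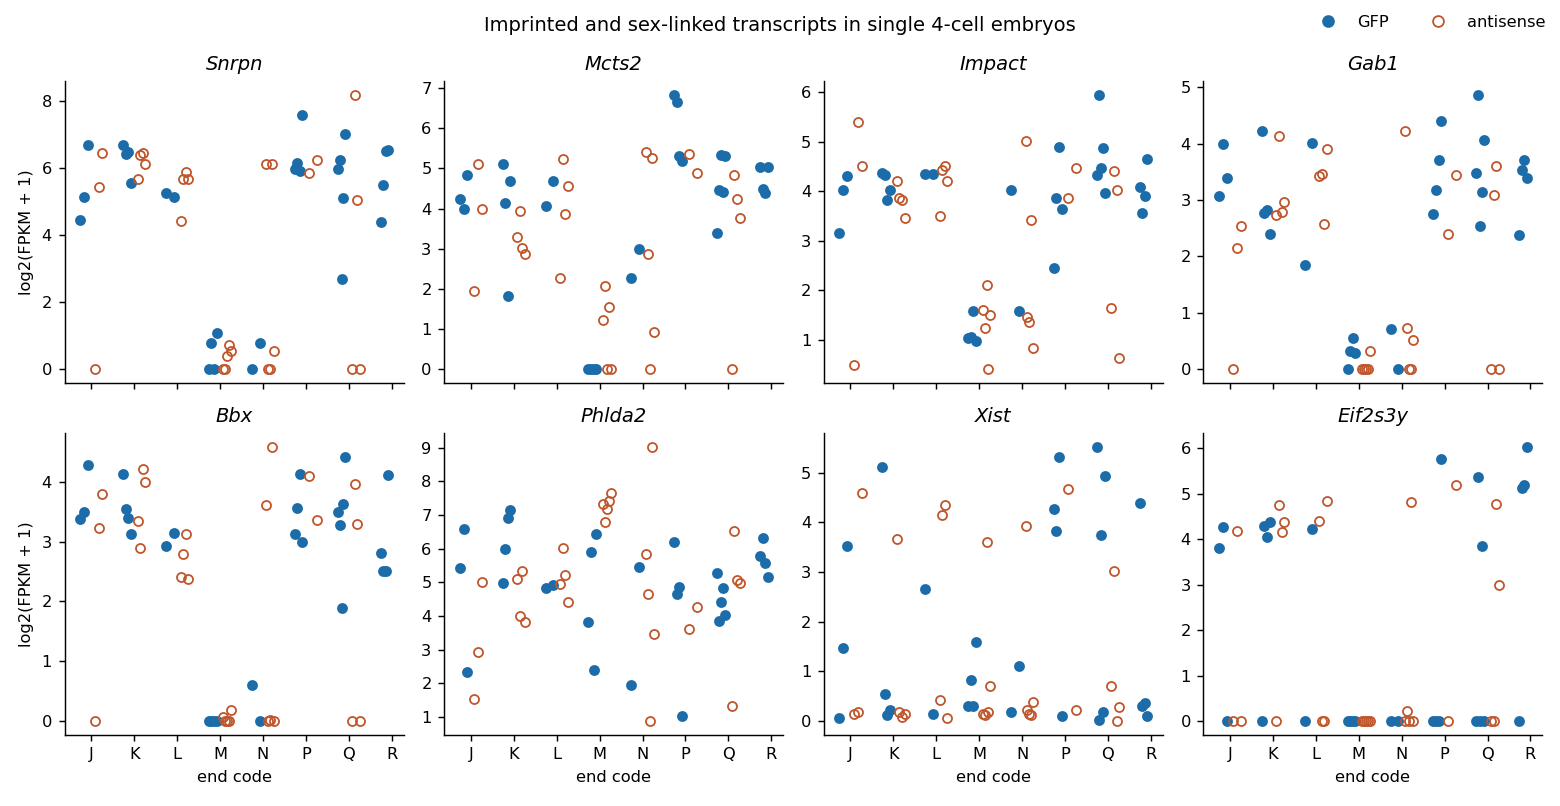
Log2(FPKM + 1) of 6 imprinted or end-code-dependent genes and of Xist and Eif2s3y in each 4-cell embryo, by end code, with GFP embryos as filled and antisense embryos as open circles. Snrpn, Gab1 and Bbx are near 0 in all GFP embryos of codes M and N, Phlda2 is not, and none of these 6 GFP embryos has Xist or Eif2s3y at 5 FPKM or more.

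Xist and the Y-linked gene Eif2s3y, a translation initiation factor subunit, were read per embryo. Eif2s3y was at 12.9 to 64.4 FPKM in 12 GFP embryos and at 0 in 16. Xist was at 5 FPKM or more in 10 embryos, up to 44.9 FPKM, and no embryo had both genes at that level. The 6 embryos with neither were the 6 of codes M and N, and the same 6 had Snrpn under 2 FPKM. Xist reached 2.02 FPKM at most in these 6. Embryo 2 had Ddx3y, Usp9y and Zfy2, further Y-linked genes, at 1.18, 1.52 and 1.34 FPKM. Among the 27 antisense embryos, 10 had Eif2s3y and 8 had Xist at 5 FPKM or more, 0 had both and 9 had neither. Snrpn was under 2 FPKM in all 9 of these and in 2 others. What sets these embryos apart was not tested.

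The 2 GFP embryos of code N also differed from the rest across the transcriptome. By limma against the other codes, 1195 of 7144 features were lower (16.7%) and 1.76% were higher. Code N, too, was picked after the F-test on these same embryos, so these p-values are not separate support. After scaling by the median of ratios the split was 688 lower and 267 higher, and the median of all features moved from -0.42 to -0.12 on the log2 scale. The counts lean on both embryos: without embryo 2, 370 features were lower and 20 higher, and without embryo 8, 832 and 36, and the lone embryo is then assumed to vary like the others. In the 5 antisense embryos of N, 0 features passed by limma, with 1206 at an unadjusted p under 0.05. In bulk RNA of an embryo, fewer cells of a kind and less RNA per cell cannot be told apart.

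Genes of the 2-cell stage stood on the higher side. Of the 26 members that passed the filter, Tdpoz3 and Usp17lb did so only through code N, at means of 3.80 and 3.71 FPKM in the other 26 embryos, and are left out of the counts. Of the other 24, 9 were higher and 0 lower (10 and 0 after scaling), with a median log2 difference of 0.88 against -0.42 for all features. Of all 7101 features at 5 FPKM or more outside N, 1.61% were higher (3.53% after scaling). Without embryo 2, 3 of the 24 were higher, and without embryo 8 only 1 was. Tdpoz2 had 854 and 1004 FPKM in embryos 2 and 8 and 0.388 to 381 FPKM in the other 26 (log2 difference 4.88, SE 1.40, limma adjusted p = 0.0179). The Tdpoz genes are close copies that can share reads. Tdpoz1 had 67.1 and 125.8 FPKM against 1.09 to 51.2 FPKM. Sp110, a nuclear body protein, had 2244 and 2868 FPKM against 438 to 1700 FPKM (limma adjusted p = 0.00103). Zscan4c, the 2-cell gene of telomere maintenance, was not tested, with a mean of 2.77 FPKM, and had 2.42 and 3.45 FPKM against a median of 2.48 in the 22 embryos outside M and N. Over all features, Htatsf1, Zc3h12a (an RNase of inflammatory mRNA) and Map4 (a microtubule protein) were the 3 with the smallest p among higher features. Zc3h12a had 50.2 and 58.9 FPKM against 4.48 to 22.6 FPKM.

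Mitochondrial genes stood on the lower side. Of the 7101 features, 16.8% were lower (9.69% after scaling). Of 76 mitochondrial ribosomal proteins 34 were lower, 44.7% (26.3% after scaling), and of 79 oxidative phosphorylation genes 27, 34.2% (17.7% after scaling). Of 46 proteasome subunits 16 were lower, 34.8%, and 13% after scaling, which is near the share of all features. Median log2 differences of these lists were -0.91, -0.93 and -0.70. Adhesion, junction and cytoskeleton genes were lower for 12 of 46, 26.1% (17.4% after scaling). Of 33 pluripotency and lineage factors 7 were lower, 21.2% (12.1% after scaling), near the share of all features. Of 81 cytosolic ribosomal protein genes 1 was lower (0 after scaling). Ndufa5, a subunit of complex I, had 0 and 2.38 FPKM in N and 21.9 to 116 FPKM in the other 26 (log2 difference -4.81, SE 0.42, limma adjusted p = 2.87e-08). Cdk4, the G1 kinase, had 8.56 and 19.7 FPKM against 92.9 to 243 FPKM (log2 difference -3.47, SE 0.32, limma adjusted p = 4.42e-08). Lamtor5, of the lysosomal Ragulator complex, had 1.2 and 3.33 FPKM against 22.6 to 113 FPKM. Actb, cytoplasmic actin, had 45.7 and 64.5 FPKM, and at least 239 FPKM in each of the others (log2 difference -3.30, SE 0.40, limma adjusted p = 3.29e-06). Pou5f1 had 9.81 and 16.3 FPKM against 18.1 to 309 FPKM (log2 difference -3.17, SE 0.57, limma adjusted p = 0.000272). For all of these both embryos of N lay below every other GFP embryo.

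**Figure D5:**
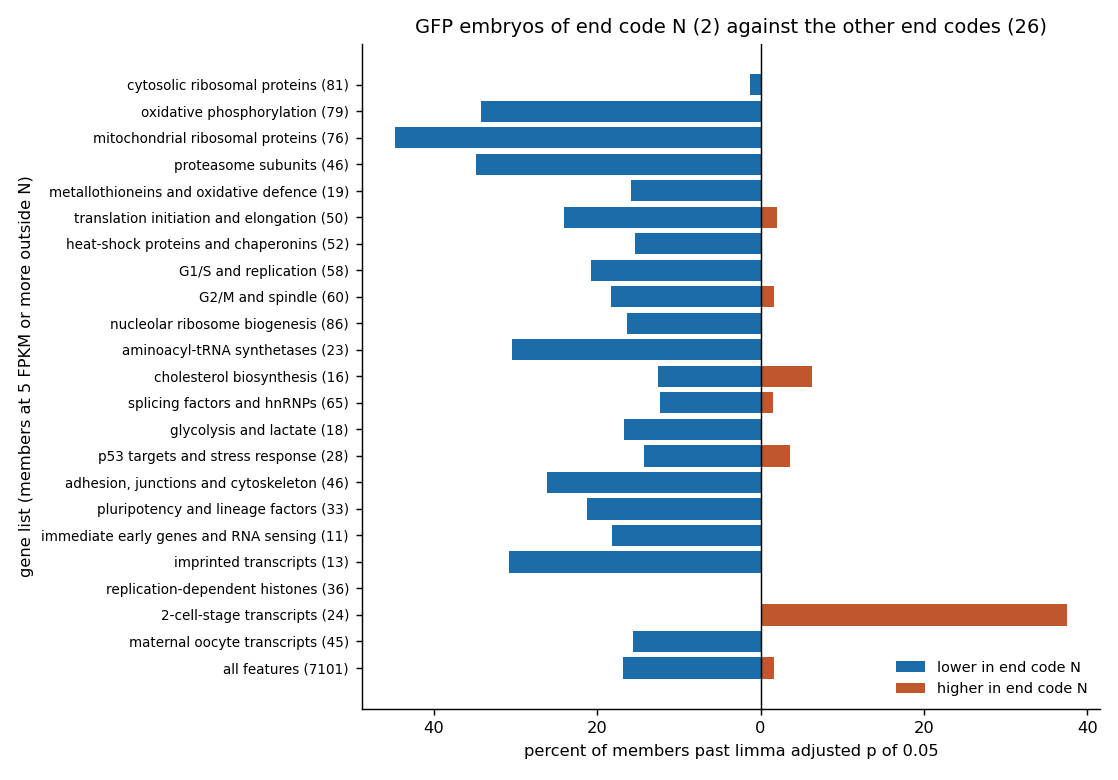
Percent of the members of each gene list, at 5 FPKM or more in the 26 GFP embryos outside code N, that were lower (to the left) or higher (to the right) in the 2 GFP embryos of code N than in the other end codes, by limma with an adjusted p under 0.05, as deposited. The number of members is in brackets. The bottom bar gives all 7101 such features, at 16.8% lower and 1.61% higher, and 2-cell-stage transcripts stand on the right with 9 of 24.

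Last, depth and the comparison group were tested. With end code in the model, 0 of 7144 features had a slope on log2 relative depth by limma (0%, 368 at an unadjusted p under 0.05). On simulated data this test found a slope of 1 on the log2 scale per doubling of depth for 22 of 100 genes and a slope of 2 for 72 of 100, so smaller slopes were mostly not detectable. On the number of features at 1 FPKM or more in place of depth, 1551 had one, 1029 upward and 522 downward. That number is itself read from the expression values. The spread around group medians within end codes differed between GFP and antisense embryos for 0 of 7237 features by limma (0%, 215 at an unadjusted p under 0.05). On simulated data an SD 4 times as large was found for 85 of 100 genes by this test and an SD 2 times as large for 13 of 100, so differences in spread of the smaller size were mostly not detectable with these embryos.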

How the data were processed

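Expression values of single 4-cell embryos were used as FPKM, as deposited by the authors in 1 table with gene symbols and coordinates. Bowtie and the mm10 build are named in the submitters' processing notes. The sources used here give neither versions nor the quantification step. Deposited were 23534 features, of which 27 are named by a date, and 1 empty line. All 28 GFP columns and 27 antisense columns were matched to samples by title. FPKM are not counts, so no count model was used. Relative depth was read from the steps of low FPKM values of 7459 features, and 1472 of 1485 embryo pairs, 99.1%, lay within 0.05 (log2) of the fitted depth ratio.

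Values were taken as log2(FPKM + 1), so changes of low genes are understated, keeping features that averaged 5 FPKM or more. End codes were compared, and slopes on depth and differences in spread tested, with limma 3.58.1 in R 4.3.3, calling an adjusted p (Benjamini-Hochberg) under 0.05. The contrasts of codes M and N, and the filter on 5 FPKM outside N for list counts in N, were added after the data were seen. The lowess trend (statsmodels 0.14.6, fraction 0.3) and the correlations (Python 3.11.15, numpy 2.4.6, scipy 1.17.1, pandas 2.3.3) used residuals from end code means, with 100000 two-sided permutations of embryos within end codes. In codes with 2 GFP embryos the residuals are mirror images. On simulated data a log2 difference of 2 in code M was found for 84 of 100 genes by the contrast and 58 of 100 by the F-test.

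The rule for named genes took the 20 most abundant features, the 25 most and 10 least variable, 10 at each end of the first 2 components, the 10 of smallest adjusted p for end codes, 3 members most correlated with each list and 2 most variable, detected marker and sex-linked genes, Mt1, Mt2, H3f3a and H3f3b. Other genes were named after their values were seen. The members and lists were chosen with earlier results of these data known. Alternatives were another pseudocount, filters, scaling, depth and leaving out embryos or end codes. The authors' own comparison of antisense and control embryos, and the 2-cell tables, were not used here. Some genes that the rule names are not reported here.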

Additional observations from a re-analysis of the deposited data

How the results depend on the processing

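The titles carry a leading number within each end code, which 19 GFP and antisense embryos share pairwise. Residuals of same-numbered embryos had correlations of -0.285 to 0.115 (median 0.0207), 2 of 19 were over 0.1, and 5 GFP embryos correlated best with the antisense embryo of their own number, so the numbers were not taken to pair embryos. With the number as a replicate block, a setting added after seeing the data, the test of spread gave 0 features by limma (227 at an unadjusted p under 0.05). The other results use GFP embryos only, so no pairing applies to them. Of the alternative values for the 5 main results, 67 stayed within 1.5 times the reported count and 16 did not. The 370 features that differed between end codes became 239 with a filter on a mean of 20 FPKM, 221 after median-of-ratios scaling, 122 without the 2 embryos of fewest features and 0 without codes M and N. Leaving out 1 end code at a time gave 15 to 790, with the lowest value without code N and the highest without code P. The slope on depth stayed at 0 features on leaving out each end code, and was 1551 features on the number of features at 1 FPKM or more. The test of spread gave 0 to 1. Of the 25 most variable features, 16 remained with a pseudocount of 0.1 FPKM, 14 with a filter on a mean of 20 FPKM, 4 without small RNA entries and 22 to 25 on leaving out 1 end code. The 38 correlated pairs of lists became 20 after scaling, 94 with end code means kept in, and 23 to 66 on leaving out 1 end code.

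The following correlations between lists changed sign, and were past the threshold neither as reported nor in the settings with the other sign. Heat-shock genes with oxidative phosphorylation had r = -0.0361 with a filter on 1 FPKM and -0.0153 with a filter on 20 FPKM. Leaving out an end code or embryo 6 gave -0.0866 to 0.813, with the lowest without code J and the highest, which passed the threshold, without embryo 6; it was -0.0034 without code Q and -0.0232 without code R. Transcripts of the 2-cell stage with maternal transcripts had r = 0.16 with a filter on 1 FPKM and -0.337 to 0.0857 on leaving out an end code, with the positive values without codes P and Q (0.0226). G1/S genes with histones had r = 0.124 without the 2 embryos of fewest features and -0.511 to 0.141 on leaving out an end code, being 0.141 without code P, and 0.108 without embryo 6. The cause was not tested. Settings without embryo 6, without codes M and N and without small RNA entries were chosen after seeing the data.

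Approximate depths under 1 M fragments in some embryos limit values of a few FPKM. Codes L and N hold 2 GFP embryos each, so their values rest on few libraries.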
